A study of Mus musculus with 12 samples.

Results

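Retinoids are vitamin A and its derivatives. The 8 genes described here encode proteins that store, carry, oxidise, reduce, break down or sense retinoids: Lrat, Rbp4, Rdh16, Aldh1a1, Dhrs3, Retsat, Cyp26a1 and Rarb. They were selected by name with earlier results of these livers known, in which Cyp26a1 was among the largest decreases of diseased against healthy livers, so their differences between those groups are given as a description. Where members past a threshold are counted in a comparison with healthy livers, the count stands beside the share of all genes tested and supports nothing. All 8 were among the 47729 genes in the files and among the 16823 genes with enough counts to be tested.

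Liver RNA was sequenced from 12 male C57BL/6 mice collected at 9 weeks of age, with 4 in each of 3 groups. The healthy mice (Naive_vehicle) are wild type in the labels, ate a normal diet and received vehicle. The STAM mice were injected with streptozotocin, a toxin of insulin-producing beta cells, on day 2 and were fed a high-fat diet from week 4, which gives a diabetic model of non-alcoholic steatohepatitis. From week 6 to week 9 they were dosed orally once a day with vehicle (STAM_vehicle) or with 10 mg/kg I-BET151 (STAM_treated), an inhibitor of the BET bromodomain proteins. Streptozotocin and diet differed together between healthy and STAM mice and cannot be told apart, and the stated carriers of the drug and of the control dose were not identical. The design compared disease with health, and then drug with vehicle within disease.

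Total counts ran from 34711229 to 53365596 per mouse. The hepatocyte markers were present in every group, with Alb, the gene of serum albumin, at 81119 ± 6735 CPM in healthy livers (SD, n = 4). Values are CPM, counts scaled to a common library size by edgeR's TMM factors. I-BET151 mouse 3 stood apart, with a TMM factor of 1.609 against 0.7696 to 1.108 in the other mice and 2.706% of counts on mitochondrial genes against 4.507% to 7.305%. Leaving it out changed many calls, and the values without it are given for only some of those genes.

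In liver, retinol is esterified by LRAT in hepatic stellate cells, which hold most of the body's vitamin A, and leaves hepatocytes bound to RBP4. Retinol is oxidised to retinal and then to retinoic acid, which activates the nuclear receptors RAR and RXR. CYP26A1 hydroxylates retinoic acid for removal, and the Cyp26a1 and Rarb genes are textbook targets of retinoic acid through repeated receptor half-sites in their promoters.

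Those half-sites are shown because the levels of Cyp26a1 and Rarb, the genes that carry them, are compared below. Promoter windows from 250 bases before to 50 bases after each RefSeq start (GRCm38.p6) were searched on both strands for a direct repeat of AGGTCA or AGTTCA or GGGTCA or GGTTCA with a spacer of 5 bases (DR5). Of 32851 windows, 32 (0.0974%) held one. All 8 genes had a window, 12 windows in all, and of the 48 retinoid pathway genes with a window only Cyp26a1 and Rarb held the repeat. Spacers of 1 and 2 bases were found in 0.222% and 0.268% of windows, and among the 48 genes only in Bco1, a carotene-cleaving enzyme, for the spacer of 1 base and in none for the spacer of 2 bases. Below, the half-sites are in capitals; the first sequence is the Cyp26a1 promoter on its own strand at chr19:37697688-37697797, outside any annotated gene, and the others are the repeats read on the strand of the half-sites, at chr19:37697770-37697798 (minus strand) and chr14:16575507-16575535 (minus strand).
Cyp26a1 promoter: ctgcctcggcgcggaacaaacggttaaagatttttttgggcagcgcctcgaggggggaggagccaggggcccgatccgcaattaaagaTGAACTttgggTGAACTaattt
Cyp26a1 repeat: caaattAGTTCAcccaaAGTTCAtcttta
Rarb repeat: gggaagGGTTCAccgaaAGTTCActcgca

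The repeat lay 32 to 16 bases before the RefSeq start of Cyp26a1 and 53 to 37 bases before that of Rarb. Between the genes, 15 of its 17 bases were identical. The Rarb window, chr14:16575427-16575726, lies inside the annotated Rarb gene. Counts are per gene, so the level of Rarb compared below is not limited to transcripts from that start. A match of letters describes the sequence and not whether a receptor was bound.

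Cyp26a1 (chr19:37697798-37701536, plus strand), the retinoic acid hydroxylase, gave the largest difference of the 8 genes between diseased and healthy livers. The healthy mice had 16.3, 16.2, 11.4 and 18.7 CPM, or 391 to 765 counts. The STAM-vehicle mice had 1.88, 2.34, 0.6 and 2.06 CPM, or 31 to 123 counts. The STAM-I-BET151 mice had 1.96, 1.84, 1.77 and 1.61 CPM. Every STAM mouse of either group was below every healthy mouse. The level was 9.11-fold lower in STAM-vehicle than in healthy livers on average (log2 fold change −3.19, SE 0.32) and 8.7-fold lower in STAM-I-BET151 (−3.12, SE 0.32). When single mice were left out, the log2 fold change of the vehicle comparison ran from −3.38 to −2.90. Within the only sequencing lane shared by a healthy and a STAM-vehicle mouse the difference was −2.96.

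No difference in Cyp26a1 was detected between the STAM groups. I-BET151 minus vehicle gave a log2 difference of 0.066, with a 95% confidence interval from −0.60 to 0.73 (adjusted p = 0.982, edgeR). The I-BET151 mice lay within the range of the vehicle mice, whose lowest, mouse 3, had 0.6 CPM. Without vehicle mouse 3 the log2 difference was −0.22.

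**Figure D1:**
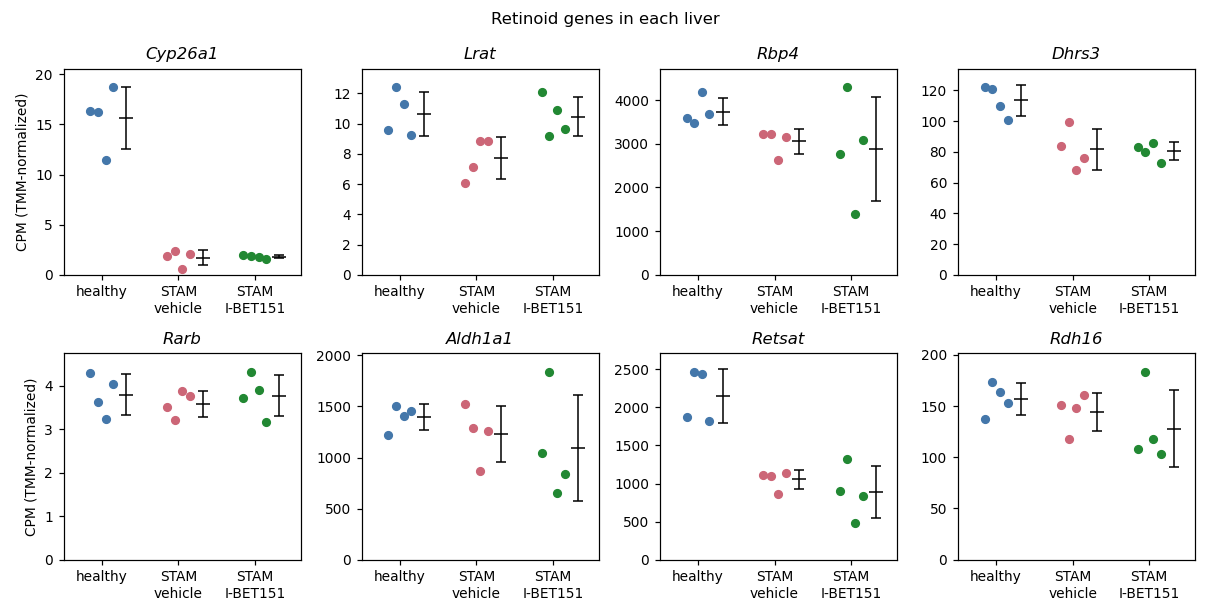
TMM-normalized CPM (y axis, starting at 0) of each retinoid gene in 4 healthy, 4 STAM-vehicle and 4 STAM-I-BET151 livers (x axis); points are mice and the black mark beside them is the mean with its SD. Cyp26a1 was between 11.4 and 18.7 CPM in healthy livers and at or below 2.34 CPM in every STAM liver.

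Retsat (chr6:72598475-72608425, plus strand), retinol saturase, which makes dihydroretinol and acts in fat metabolism, had the next largest difference from healthy livers among the 8. Healthy livers had 1881, 2463, 2439 and 1816 CPM. STAM-vehicle livers had 1117, 1095, 869 and 1143 CPM, and STAM-I-BET151 livers had 896, 1329, 486 and 838 CPM. Neither STAM group overlapped the healthy mice. The level was 2.04-fold lower in STAM-vehicle livers (log2 fold change −1.03, SE 0.27) and 2.42-fold lower in STAM-I-BET151 livers (−1.28, SE 0.27). Without I-BET151 mouse 3, the lowest at 486 CPM, the latter was −1.09. Against vehicle, I-BET151 gave −0.25 with an interval from −0.83 to 0.33 (adjusted p = 0.86, edgeR), or −0.04 without that mouse. With the lane as a covariate the difference from healthy livers was −0.41 for vehicle and −0.87 for I-BET151. An antisense gene, Gm45053, overlaps Retsat, with a mean of 6.54 CPM, and the strand setting of the counting is not given.

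Dhrs3 (chr4:144892827-144928209, plus strand) encodes the enzyme that reduces retinal back to retinol, and it is itself a target of retinoic acid. Healthy livers had 122, 121, 110 and 101 CPM. STAM-vehicle livers had 83.9, 99.1, 67.9 and 76 CPM, and STAM-I-BET151 livers had 83, 79.9, 86 and 72.8 CPM. No STAM mouse reached the lowest healthy mouse. Against healthy livers the log2 fold change was −0.48 (SE 0.14) with vehicle and −0.50 (SE 0.14) with I-BET151. The groups of STAM mice differed by −0.023, with an interval from −0.31 to 0.27 (adjusted p = 0.985, edgeR).

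Lrat (chr3:82892579-82903973, minus strand), the retinol acyltransferase of stellate cells, was the only one of the 8 whose levels did not overlap between the STAM groups. Healthy livers had 9.56, 12.4, 11.3 and 9.26 CPM. STAM-vehicle livers had 6.06, 7.14, 8.82 and 8.85 CPM, and STAM-I-BET151 livers had 12.1, 9.19, 10.9 and 9.65 CPM. The vehicle mice lay below all mice of both other groups. Log2 fold changes were −0.46 (SE 0.16) for STAM-vehicle minus healthy, 0.44 (SE 0.16) for I-BET151 against vehicle and −0.025 (SE 0.16) for I-BET151 against healthy. The rise with I-BET151 had an unadjusted p of 0.0159 and an adjusted p of 0.421 over all genes tested, so it did not pass the threshold in edgeR, nor in any of the 19 alternatives, whose adjusted p ran from 0.204 to 0.794.

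Rbp4 (chr19:38116629-38125281, minus strand), the plasma carrier of retinol, overlapped between groups except in STAM-vehicle against healthy livers. Aldh1a1 (chr19:20492715-20643465, plus strand), a retinal dehydrogenase, overlapped in all 3 comparisons. Rbp4 was at 3580, 3486, 4182 and 3672 CPM in healthy livers, and at 3220, 3222, 2623 and 3154 CPM in STAM-vehicle livers. It was at 2758, 4294, 1397 and 3086 CPM in STAM-I-BET151 livers, the lowest value being that of mouse 3. The vehicle mice lay below the healthy mice, and I-BET151 mice spanned both groups. STAM-vehicle minus healthy was −0.29 on the log2 scale (SE 0.29), and I-BET151 minus vehicle −0.083 (interval −0.71 to 0.55, adjusted p = 0.974, edgeR), where the sign turned without mouse 3 (0.15). Aldh1a1 was at 1222, 1507, 1403 and 1453 CPM in healthy, 1525, 1284, 864 and 1259 CPM in STAM-vehicle and 1041, 1835, 650 and 839 CPM in STAM-I-BET151 livers. All 3 groups overlapped, with a log2 difference of −0.18 in the disease comparison and −0.18 in the drug comparison (interval −0.81 to 0.45, adjusted p = 0.925, edgeR), the latter turning to 0.016 without I-BET151 mouse 3. Aldh1a7, a close paralogue, could share reads with Aldh1a1.

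Rdh16 (chr10:127801152-127846565, plus strand), which oxidises retinol to retinal, was at 137, 173, 164 and 153 CPM in healthy, 151, 118, 148 and 161 CPM in STAM-vehicle and 108, 183, 118 and 103 CPM in STAM-I-BET151 livers. The groups overlapped. The log2 difference was −0.12 in the disease comparison and −0.17 in the drug comparison (interval −0.57 to 0.23, adjusted p = 0.862, edgeR). Rdh16 sits in a cluster of near-identical genes, and Rdh18-ps, a pseudogene on its strand, overlaps its exons at a mean of 8.43 CPM, so its counts are uncertain to that extent. Rarb (chr14:16430839-16819156, minus strand), the retinoic acid receptor beta, stayed between 3.17 and 4.31 CPM in all 12 mice. Healthy livers had 4.3, 3.63, 3.23 and 4.03 CPM, STAM-vehicle livers 3.51, 3.2, 3.87 and 3.76 CPM and STAM-I-BET151 livers 3.71, 4.31, 3.89 and 3.17 CPM. Its log2 difference was −0.084 (SE 0.16) in the disease comparison, where Cyp26a1 gave −3.19, and 0.072 (interval −0.27 to 0.41, adjusted p = 0.95, edgeR) in the drug comparison. Top2b, with a mean of 39.1 CPM, overlaps exons of Rarb on the opposite strand. The strand setting of the counting is not given, so the low counts of Rarb are uncertain. The share of Top2b reads in them was not tested.

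Per kilobase of exons, the healthy levels ran from Rbp4 (2778 CPM per kb) through Retsat (608), Aldh1a1 (283), Dhrs3 (38.8), Rdh16 (25.2), Cyp26a1 (7.89) and Lrat (1.99) to Rarb (0.721). In STAM-vehicle livers Cyp26a1, at 0.867 CPM per kb, was below Lrat (1.44) and near Rarb (0.681).

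**Figure D2:**
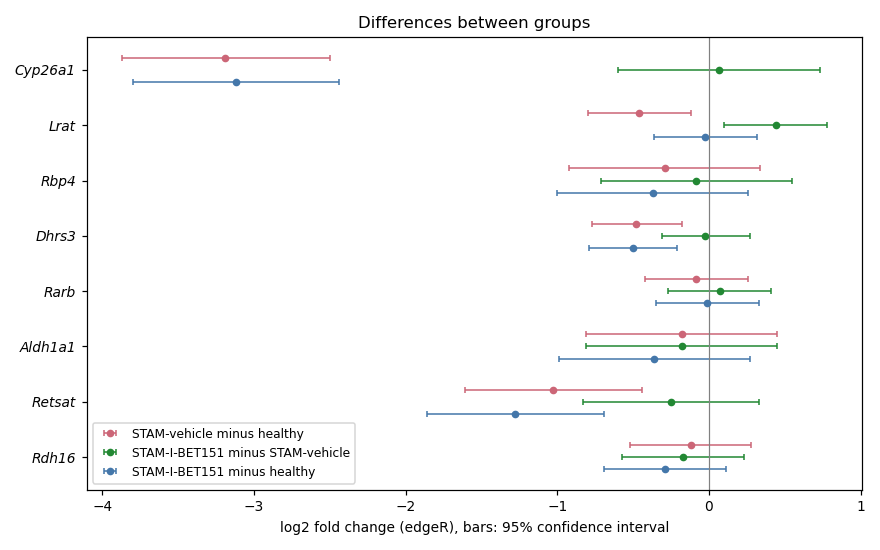
Log2 fold change (x axis) of each retinoid gene for the 3 comparisons, with 95% confidence intervals from edgeR; the vertical line is no difference. The intervals for Cyp26a1 lie between −3.87 and −2.44 in the comparisons with healthy livers, and the I-BET151 against vehicle intervals of 7 genes include 0, all but that of Lrat.

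Against healthy livers, 2 of the 8 genes, Cyp26a1 and Retsat, were past the threshold of 0.05 in STAM-vehicle livers, both lower, while 1.38% of all genes tested were called lower and 5.72% higher. In 5 of 8, all lower, the groups did not overlap, against 12.2% of all genes lower and 14.2% higher without overlap. All 8 had a lower mean. The median of their log2 fold changes was −0.37, and that of all genes tested 0.0089. These counts describe genes chosen with this contrast known and are read no further. The count depended on the mice in the fit: Retsat dropped out of it without any 1 of the 8 healthy or vehicle mice, and without I-BET151 mouse 1. With DESeq2 there were 3 genes, Dhrs3 being added. Without I-BET151 mouse 3, which is in neither group compared and enters through the shared spread, 4 genes were called (Cyp26a1, Lrat, Dhrs3 and Retsat). Over all genes, edgeR with all mice called 963 higher and 232 lower of 16823 tested. DESeq2 called 1411 higher and 499 lower. The fit without I-BET151 mouse 3 called 2028 higher and 1751 lower of 16967 tested.

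I-BET151 against vehicle moved none of the 8 genes past its threshold of 0.1 in edgeR, in DESeq2 or in any alternative. Of all genes tested, 0.0951% were called higher and 0.256% lower. At an unadjusted p under 0.05 there was 1 gene of 8, Lrat, beside 1460 of the 16823 genes tested. Lrat was also the only one of the 8 without overlap between the groups, against 2.41% of all genes without overlap higher and 2.63% lower. The median log2 difference was −0.053, against 0.024 over all genes. Against healthy livers, 3 of 8 genes were past 0.05 in STAM-I-BET151 livers (Cyp26a1, Dhrs3 and Retsat, all lower), against 5.25% of all genes called lower and 9.88% higher; 3 of 8 did not overlap and were lower, against 8.85% of all genes lower and 10.9% higher. The 2 comparisons with healthy livers share the healthy mice, and the 2 comparisons involving STAM-vehicle share those mice. Without I-BET151 mouse 2, 5 genes were called against healthy, with Aldh1a1 and Rdh16 added. Over all genes, that fit called 2378 higher and 1353 lower of 17178 tested, against 1662 and 884 of 16823 with all mice.

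The rest of the retinoid pathway comprised 54 further genes, 47 of them tested, grouped by role in lists that were also drawn up with earlier results known. Over the whole pathway of 62 genes, 55 of them tested, 2 were higher and 6 lower in STAM-vehicle than in healthy livers, and the median log2 fold change was −0.17, beside shares of 5.72% higher and 1.38% lower and a median of 0.0089 over all genes tested. Without the 8 genes above, 2 were higher and 4 lower, with a median of −0.14. The number called in the pathway, 8 of 55, fell to 2 without healthy mouse 2 or mouse 4 and rose to 21 without I-BET151 mouse 3, and DESeq2 called 12. Calls over all genes moved too. From 963 higher and 232 lower they went to 487 and 82 without healthy mouse 2 and 489 and 99 without mouse 4. They were 2028 and 1751 without I-BET151 mouse 3, and 1411 and 499 with DESeq2. In STAM-I-BET151 against healthy livers 4 pathway genes were higher and 11 lower, beside 9.88% and 5.25% of all genes tested. The same shares stand beside the counts called in each list below, which are descriptions and are read no further.

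Among the enzymes that break retinoic acid down, Cyp26c1, the neighbour of Cyp26a1, was also lower in STAM-vehicle livers. It lies 4399 bases upstream of Cyp26a1, on chr19:37685581-37693398, and was barely expressed, with 9 to 22 counts per healthy mouse, 3 to 6 per STAM-vehicle mouse and 3 to 18 per STAM-I-BET151 mouse. Healthy livers had 0.383, 0.583, 0.262 and 0.604 CPM and STAM-vehicle livers 0.0721, 0.0762, 0.116 and 0.127 CPM, without overlap (log2 fold change −2.19, SE 0.48, adjusted p = 0.0151, edgeR). The call was lost without healthy mouse 2 (adjusted p = 0.0505) or mouse 4 (0.0506) and with the lane as a covariate (0.4), and its adjusted p over the 17 alternatives that tested it ran from 0.0019 to 0.4. Its counts in every STAM-vehicle mouse were under the filter's minimum of 10, so it was tested through its higher counts in other mice and a low value was favoured. It had too few counts for a test with only the 2 groups or with at least 10 counts in every mouse. Cyp26b1, the third CYP26 enzyme and the highest of the list at 22.3 ± 6.79 CPM in healthy and 19.4 ± 4.69 CPM in STAM-vehicle livers (SD, n = 4), gave a log2 difference of −0.20 with an adjusted p of 0.657. The other neighbours tested, Exoc6 (−0.22, adjusted p = 0.565), Hhex (−0.012, adjusted p = 0.989) and Myof (0.59, adjusted p = 0.0924), did not pass the threshold in edgeR.

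Cyp2c39, a cytochrome P450 able to hydroxylate retinoic acid, was the one pathway gene past the threshold of 0.1 for I-BET151 against vehicle. STAM-vehicle livers had 18.2, 13.1, 18.6 and 9.72 CPM and STAM-I-BET151 livers 5.89, 6.51, 2.8 and 8.07 CPM, without overlap, while healthy livers had 9.07, 11, 8.52 and 7.82 CPM. The log2 fold change was −1.36 (SE 0.28, adjusted p = 0.0875, edgeR). The call was kept in 5 of 19 alternatives, whose adjusted p ran from 0.00188 to 0.367, and it was lost without any 1 of the 8 healthy or vehicle mice and without I-BET151 mouse 1 or 2. Without I-BET151 mouse 3, both Cyp2c39 and Rdh11 passed. Cyp2c39 belongs to a family of near-identical genes that could split reads.

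**Figure D3:**
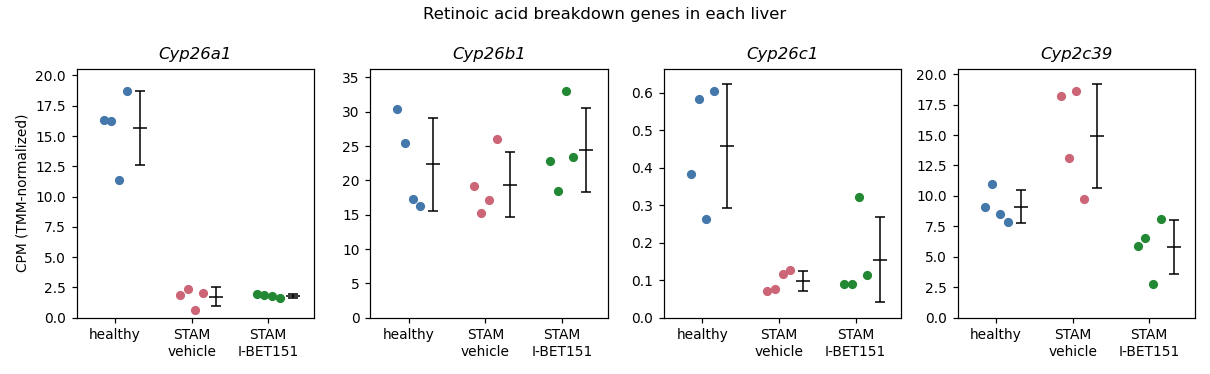
TMM-normalized CPM (y axis, starting at 0) of the 4 genes of the retinoic acid breakdown list in 4 healthy, 4 STAM-vehicle and 4 STAM-I-BET151 livers; points are mice and the black mark is the mean with its SD. Cyp26a1 and Cyp26c1 were lower in STAM-vehicle livers without overlap, Cyp26b1 overlapped, and Cyp2c39 was lower in STAM-I-BET151 than in STAM-vehicle livers.

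Of the 6 genes that reduce retinal or saturate retinol, 3 were called lower in STAM-vehicle than in healthy livers, all 6 having a lower mean. Besides Retsat these were Dhrs4, a retinal reductase (161 ± 11.2 to 113 ± 4.17 CPM, log2 fold change −0.51, adjusted p = 0.0401), and Rdh11, which reduces retinal (20.4 ± 2.01 to 13.5 ± 0.597 CPM, −0.60, adjusted p = 0.0319). Dhrs4 kept its call in 7 and Rdh11 in 10 of 19 alternatives. In STAM-I-BET151 against healthy livers 4 were called lower, with Rdh11 at 8.98 ± 1.95 CPM (−1.18, adjusted p = 0.000532). Of all genes tested, 1.38% were called lower with vehicle and 5.25% with I-BET151. With vehicle, 8252 of the 16823 genes tested had a lower mean. The list holds Retsat and Dhrs3, which were chosen with the contrast known, so its counts are read no further.

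Of 12 genes that oxidise retinol, Dhrs9 alone passed the threshold in STAM-vehicle livers with all mice in the fit. It rose from 0.553, 0.848, 0.959 and 0.863 CPM in healthy livers to 4.04, 2.97, 7.54 and 2.65 CPM in STAM-vehicle livers (log2 fold change 2.42, SE 0.47, adjusted p = 0.00775, edgeR), and was at 6.88, 4.97, 1.31 and 4.3 CPM in STAM-I-BET151 livers. Its call held in 18 of 19 alternatives. Without I-BET151 mouse 3, Adh7, Rdh5, Rdh7 and Rdh10 also passed in STAM-vehicle against healthy livers. Against healthy livers, STAM-I-BET151 livers also had higher Rdh5 (0.74, adjusted p = 0.0308), which overlaps Bloc1s1 on its strand. Rdh5 was at 28.7 CPM in I-BET151 mouse 3 and at 13.6 to 14.3 CPM in the other I-BET151 mice, without mouse 3 its log2 fold change was 0.39 (adjusted p = 0.0123), and its call was kept in 13 of 19 alternatives, with adjusted p from 0.0123 to 0.49. The same comparison had lower Rdh7 (−0.74, adjusted p = 0.0193) and Rdh16f2 (−0.89, adjusted p = 0.0135), called in 14 and 18 of 19 alternatives. Adh1, an alcohol dehydrogenase and the list's highest by its mean over all mice, was at 826 ± 71.1 CPM in healthy and 958 ± 133 CPM in STAM-vehicle livers (0.21, adjusted p = 0.666).

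Of 9 genes for retinyl ester synthesis and hydrolysis, 1 was called higher and 1 lower in STAM-vehicle livers. Lpl, lipoprotein lipase, went from 17.1, 11.8, 19.5 and 16.8 CPM to 37.6, 29.2, 65 and 42.8 CPM (log2 fold change 1.42, SE 0.39, adjusted p = 0.0444). Lipc, hepatic lipase, went from 131 ± 17.4 to 79.1 ± 11.9 CPM (−0.73, adjusted p = 0.0347). Lpl kept its call in 7 of 19 alternatives (adjusted p from 0.00254 to 0.638) and Lipc in 11 (0.00395 to 0.761), and both lost it without healthy mouse 2, 3 or 4 or vehicle mouse 1, 3 or 4. In STAM-I-BET151 against healthy livers Lpl was again higher (1.67, adjusted p = 0.0139), and Lipc (−1.36, adjusted p = 0.000853) and Lipa, lysosomal acid lipase and the list's highest by its mean over all mice (−0.61, adjusted p = 0.0479), were lower. The call of Lipa was kept in 5 of 19 alternatives. Of 7 retinal oxidation genes, Aldh8a1 was called lower in that comparison (−0.56, adjusted p = 0.0471, kept in 4 of 19 alternatives), and gave −0.38 without overlap and an adjusted p of 0.22 in STAM-vehicle against healthy livers. Without I-BET151 mouse 3, Lipa, Aldh8a1 and Aox1 were called in STAM-vehicle against healthy livers.

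No retinoic acid or rexinoid receptor passed the threshold in any of the 3 comparisons, by edgeR with all mice in the fit, and of 6 receptors none had an unadjusted p under 0.05. Rxra, the highest, was at 547 ± 26 CPM in healthy and 496 ± 40.6 CPM in STAM-vehicle livers (−0.14, adjusted p = 0.7). DESeq2 called none of these receptors either. Without I-BET151 mouse 3, edgeR called Rara in STAM-vehicle against healthy livers. None of the 3 genes for carotenoid uptake and cleavage was called by edgeR with all mice in the fit or by DESeq2. In STAM-vehicle against healthy livers 2 had an unadjusted p under 0.05 in edgeR, beside 3749 of the 16823 genes tested. Bco2 was called there in the fit of only those 2 groups and in the fit without I-BET151 mouse 3. Scarb1, the highest, gave −0.28 with an adjusted p of 0.393. Of 5 tested binding and transport genes, Fabp5, a fatty acid and retinoic acid carrier, was called in STAM-I-BET151 against healthy livers (1.83, adjusted p = 0.0285, kept in 11 of 19 alternatives). Ttr, of the same list, was lower than in healthy livers without overlap in STAM-vehicle (−0.70, adjusted p = 0.153, edgeR) and STAM-I-BET151 livers (−0.71, adjusted p = 0.098). For STAM-vehicle it was called in the fit of only the 2 groups and without I-BET151 mouse 3. Of 11 tested genes of a list of known retinoic acid targets, 1 (Cyp26a1) was called lower and none higher in STAM-vehicle livers, and 6 had a lower and 5 a higher mean, with a median of −0.084. Stra6, Rbp2, Rbp7, Crabp1, Crabp2, Rdh16f1 and Rdh12 had too few counts to test.

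**Figure D4:**
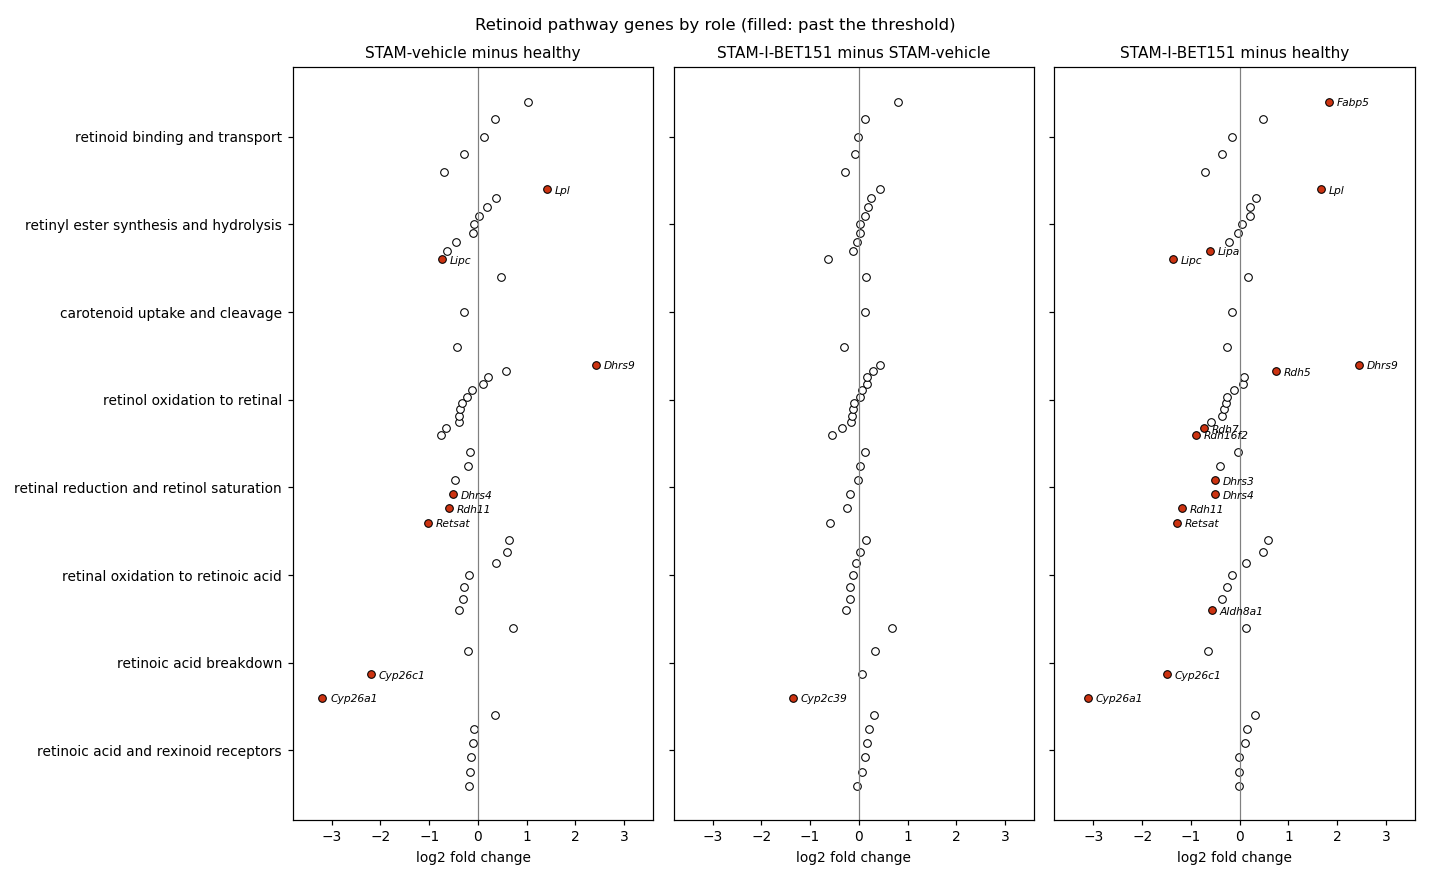
Log2 fold change (x axis) of the tested retinoid pathway genes, grouped by role (y axis), in each of the 3 comparisons; filled points passed the adjusted p of the comparison and are named. Cyp26a1 and Cyp26c1 are the genes farthest to the left in the STAM-vehicle against healthy panel, and only Cyp2c39 is filled in the I-BET151 against vehicle panel.

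In bulk tissue, fewer cells of a type and less RNA per cell cannot be told apart. Stellate cells, which express Lrat, had 13 of 13 markers tested and 0 called in STAM-vehicle livers, with 2 at an unadjusted p under 0.05, and a summed level of 482 to 548 CPM in healthy, 351 to 538 CPM in STAM-vehicle and 430 to 477 CPM in STAM-I-BET151 livers. All 7 markers of stellate activation had a higher mean in STAM-vehicle livers, with Col1a1 and Timp1 called, and the sum ran from 41.7 to 66.5 CPM in healthy and from 73.9 to 106 CPM in STAM-vehicle livers. Timp1 had 0 to 5 counts per healthy mouse, under the filter's minimum of 10, and 16 to 42 per STAM-vehicle mouse. It was tested through its higher counts in STAM mice, so a rise was favoured. All 7 macrophage markers had a higher mean and 3 were called, with sums of 200 to 285 against 323 to 576 CPM. Of 8 hepatocyte markers all had a lower mean in STAM-vehicle livers, 0 were called and 1 had an unadjusted p under 0.05, with sums of 106387 to 129803 against 55703 to 77244 CPM. Alb, at a mean of 81119 against 41310 CPM, made up the largest part of these sums. Log2 fold changes of the 8 ran from −0.97 (Alb) to −0.018 (Hnf4a). The median log2 fold change of the hepatocyte markers was −0.53, between those of Dhrs3 and Retsat, and that of Cyp26a1 was −3.19. Of 9 pericentral markers, 1, Cyp1a2, was called lower and 6 had a lower mean; of 7 periportal markers, all had a lower mean and 0 were called, with 3 at an unadjusted p under 0.05. Of the 5 T-cell markers Cd8a was called higher in STAM-vehicle livers, and Cd4 was called lower with I-BET151. Cd8a, at 3 to 12 counts per healthy and 26 to 63 per STAM-vehicle mouse, was likewise tested through its higher counts in STAM mice. No endothelial (6) or bile duct (4) marker was called in STAM-vehicle livers, with 1 and 2 at an unadjusted p under 0.05. In STAM-I-BET151 against healthy livers the calls were 1 higher and 2 lower of 13 stellate markers, 4 of 7 stellate activation and 3 of 7 macrophage markers higher, 4 of 9 pericentral and 5 of 7 periportal markers lower, 1 of 4 bile duct markers higher (Krt7), and 0 of 8 hepatocyte markers, with 3 of those at an unadjusted p under 0.05. Of all 16823 genes tested, 3749 had an unadjusted p under 0.05 in STAM-vehicle against healthy livers and 5487 in STAM-I-BET151 against healthy livers, by edgeR. Called higher and lower were 5.72% and 1.38% of them in the former and 9.88% and 5.25% in the latter comparison. The marker counts are descriptions to be set beside these shares. The part of cell composition in the retinoid genes' differences was not tested.

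The other genes with the repeat were compared in the same way. Of 31 genes with a DR5 window, 15 were in the files and 6 were tested. Cyp26a1 alone was called in STAM-vehicle against healthy livers, beside 1.38% of all genes tested called lower and 5.72% higher. It was selected with this contrast known, so the count is a description and is read no further. Blvrb (0.30), Cfap45 (0.78), Gm4631 (−0.14), Rarb (−0.084) and Tnfsf13b (0.28) had adjusted p from 0.324 to 0.8 in STAM-vehicle against healthy livers. The repeat was searched after the values of Cyp26a1 and Rarb were seen, and only the 5-base spacer, the half-sites and the window stated were tried in this count.

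The genes whose pattern over the 12 mice was most like that of Cyp26a1, by the mean absolute difference of log2 CPM after each gene was centred on its own mean, were Slc13a2 (0.40), Ptprt (0.44), Raet1d (0.51), Slco1a4 (0.53) and Scd4 (0.57). They were picked for this likeness, so that they too were lower in both STAM groups follows from the choice. Slc13a2, a dicarboxylate transporter, went from 3.99 ± 1.2 CPM in healthy to 0.595 ± 0.408 CPM in STAM-vehicle and 0.609 ± 0.333 CPM in STAM-I-BET151 livers (SD, n = 4). Slco1a4, an organic anion transporter, went from 197 ± 13.8 to 38.4 ± 6.39 and 22.9 ± 10.1 CPM.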

How the data were processed

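Liver RNA of 12 mice was sequenced after preparation with a stranded mRNA kit. Per the labels and the paper, STAR 2.5.1b aligned the reads to mm10, and the authors counted them per gene with htseq-count and deposited whole-number counts for each mouse, without normalization. The deposited names point to featureCounts instead, and the annotation release and strand setting are not given in the sources used here. The study left out 1 unnamed I-BET151 sample. All 4 were used here.

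Symbols and positions came from GENCODE M21 (GRCm38) by gene ID, which matched 47310 of 47729 IDs; unmatched IDs held 0.0219% of counts. In R 4.3.3, edgeR 4.0.16 fitted all 3 groups together on TMM-scaled libraries, after filterByExpr (minimum count 10), by its quasi-likelihood test and Benjamini-Hochberg adjustment over 16823 genes. Calls were at an adjusted p of at most 0.05, or 0.1 for the drug comparison, as in the study. SEs are the log2 fold change divided by the square root of F. Log2 CPM used a prior count of 2. Figures used Matplotlib 3.10.9 and tables pandas 2.3.3 and NumPy 2.4.6. The script was checked on simulated counts.

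Members and lists were chosen with earlier results of these data known. Named genes are the 8 members, other pathway genes called in any comparison, the highest gene of each list, the 5 genes nearest to Cyp26a1, and markers as lists. Alternatives were DESeq2 1.42.0, RLE normalization, 2 filters, fits of only 2 groups, a block on the replicate number, the lane named in the deposited files as a covariate, and each mouse left out. Replicates are separate mice by label, and counts of mice of a group differed beyond sampling noise (chi-square per degree of freedom 30.8 to 644 over 18 pairs). The total counts, 34711229 to 53365596 per mouse, limit the low genes.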

Additional observations from a re-analysis of the deposited data

Results flagged for a closer look

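In 6 of 63 groups of 4 mice tested, a single mouse lay far from the other mice by Dixon's 95% criterion, where chance gives about 1 in 20. STAM-vehicle mouse 3 was low in 4 of them. Its Cyp26a1 was at 0.6 CPM against 1.88 to 2.34 in the other vehicle mice, its Rbp4 at 2623 CPM against 3154 to 3222, its Retsat at 869 CPM against 1095 to 1143, and its Lipc at 61.5 CPM against 82.8 to 87. STAM-I-BET151 mouse 3, whose TMM factor of 1.609 was the highest of all libraries, was high in 2, with Cyp26c1 at 0.323 CPM against 0.0901 to 0.115 and Rdh5 at 28.7 CPM against 13.6 to 14.3. These 2 mice were the only libraries of lane 7, so mouse and lane cannot be told apart. Without vehicle mouse 3 the log2 fold change of Cyp26a1 against healthy livers was −2.90.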

How the results depend on the processing

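With mice left out, the log2 fold change of Cyp26a1 against healthy livers ran from −3.38 to −2.90 with vehicle and from −3.26 to −3.02 with I-BET151, given as a description. No member was called for I-BET151 against vehicle in any. Values of single genes under alternatives covered the members, and other pathway genes only in comparisons where edgeR with all mice in the fit called them. Of these values, 629 kept their direction and side of the threshold, 155 lost the threshold, 9 gained it and 21 turned sign. Genes other than members could thus lose a call but not gain one, so the numbers lost and gained cannot be compared.

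For STAM-vehicle against healthy, 8 pathway genes were called; there were 12 with DESeq2, 20 in the fit of the 2 groups, 4 with the replicate block, 1 with the lane covariate and 2 to 21 with mice left out. The 2 members became 3, 4, 1, 1 and 1 to 4. Over all genes tested, edgeR with all mice called 963 higher and 232 lower. These totals became 1411 and 499 with DESeq2, and 2085 and 1794 with the 2 groups. With the replicate block they were 641 and 101, and with the lane 33 and 4. Without I-BET151 mouse 3 they were 2028 and 1751. For I-BET151 against vehicle, the 1 pathway gene became 2 with DESeq2, 0 with RLE normalization, 0 with the 2 groups, 0 with the replicate block, 0 with the lane and 0 to 2 with mice left out. Over all genes, the 16 higher and 43 lower became 94 and 174 with DESeq2, and 15 and 40 with RLE normalization. They became 2 and 6 with the 2 groups, 2 and 8 with the block, and 0 and 0 with the lane. For I-BET151 against healthy, the 15 pathway genes became 8 with the 2 groups, 8 with the replicate block, 1 with the lane and 6 to 20 with mice left out, and the 3 members became 1 with the lane and 2 to 5. Over all genes, the 1662 higher and 884 lower became 933 and 329 with the 2 groups. They became 1065 and 508 with the block, and 67 and 18 with the lane. The pathway counts are to be read beside these totals, and the cause of their changes was not tested.

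Signs turned with the lane covariate in STAM-vehicle against healthy for Rbp4 (0.22), Aldh1a1 (0.30) and Rdh16 (0.36), and in I-BET151 against vehicle for Dhrs3 (0.12) and Rarb (−0.0086). With mice left out of the latter, Cyp26a1 ran from −0.22 to 0.26, Rbp4 from −0.34 to 0.15, Dhrs3 from −0.10 to 0.081, Rarb from −0.00031 to 0.15 and Aldh1a1 from −0.55 to 0.016. In I-BET151 against healthy, Lrat turned with the stricter filter (0.017) and the lane (0.10) and ran from −0.10 to 0.054, and Rarb turned with the stricter filter (0.028) and the 2 groups (0.0052) and ran from −0.09 to 0.057.

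Same-numbered mice did not deviate together (mean r −0.0927 over 12 pairs, −0.351 to 0.0933, against 0.0306 for other pairs), so the replicate numbers were not taken as pairs. Deviations from a group's mean cancel within the group, so the value for other pairs is tied to the first and is no independent baseline. Most lanes held mice of 1 or 2 groups, so lane and group can barely be separated. Depth limits Cyp26c1, with 3 to 22 counts per mouse.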
